A study of Mus musculus with 4 samples.

Results

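The granule and calgranulin genes of neutrophils were followed across 4 treatments of a mouse malignant pleural effusion. The 10 genes were S100a8, S100a9, Retnlg, Ngp, Camp, Ltf, Lcn2, Wfdc21, Cd177 and Chil3, all found by symbol among the 27998 genes of the deposited matrices. They were read in neutrophils, defined as cells with at least 1 Csf3r UMI, no Csf1r UMI and at least 50 S100a8 plus S100a9 UMIs per 10000. A UMI, or unique molecular identifier, marks 1 captured RNA molecule. The rule found 2657 neutrophils among 13638 kept cells: 660 of 2838 in the PBS library, 796 of 3842 with LNP-cGAMP, 736 of 3406 with anti-PD-L1 and 465 of 3552 with the combination.

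The mice were C57BL/6, whose age is not given in the labels, and all carried pleural effusions of LLC, the Lewis lung carcinoma line. On day 11 they received into the pleural space PBS, 1 µg of LNP-cGAMP (a lipid nanoparticle carrying the STING agonist cGAMP), 30 µg of an antibody against PD-L1, or both agents. Pleural fluid cells were taken on day 13, 48 h later, red blood cells were lysed, and cells of 3 mice per treatment were pooled into 1 library, with 4000 cells loaded. With 1 pooled library per treatment there is no replicate: no test between treatments was possible, and every interval below is a 95% interval that covers counting error only. LLC is a single transplanted line, and the labels do not tie cells to the individual mice of a pool.

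Neutrophils make their granule proteins in waves as they mature in the bone marrow. Primary granule enzymes such as myeloperoxidase come first, the secondary or specific granule proteins lactoferrin, the cathelicidin and Ngp follow in myelocytes, and gelatinase granules come last. Transcripts of the early waves are mostly switched off before a neutrophil enters the blood, under regulators that include the C/EBP family, while S100a8 and S100a9 stay among the most abundant transcripts of mature cells. S100A8 and S100A9 pair to form calprotectin, which binds zinc and manganese and signals through receptors such as TLR4.

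Promoter sequence is shown for the members that were seen together in the same cells and for the members that differed most between treatments. Of the 10 genes, 9 had an entry in the RefSeq promoter table (GRCm38.p6), and Wfdc21 was not matched. Each line below is the part of the 250 bases upstream of the RefSeq start that lies outside the GENCODE vM21 gene body, 5′ to 3′ on the gene's strand. Capitals mark matches to TTNNGNAA, a relaxed C/EBP-type motif, read on both strands.
S100a8 (chr3:90668821-90668977, plus strand, 157 bases): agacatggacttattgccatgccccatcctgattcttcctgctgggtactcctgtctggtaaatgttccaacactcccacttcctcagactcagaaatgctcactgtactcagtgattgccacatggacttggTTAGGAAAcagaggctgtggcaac
S100a9 (chr3:90695722-90695971, minus strand, 250 bases): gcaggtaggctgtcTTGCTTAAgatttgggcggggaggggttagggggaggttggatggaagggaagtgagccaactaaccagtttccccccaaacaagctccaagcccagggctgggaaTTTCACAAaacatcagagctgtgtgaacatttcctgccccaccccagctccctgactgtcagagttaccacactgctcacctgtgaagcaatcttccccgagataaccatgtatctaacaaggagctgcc
Ngp (chr9:110419558-110419746, plus strand, 189 bases): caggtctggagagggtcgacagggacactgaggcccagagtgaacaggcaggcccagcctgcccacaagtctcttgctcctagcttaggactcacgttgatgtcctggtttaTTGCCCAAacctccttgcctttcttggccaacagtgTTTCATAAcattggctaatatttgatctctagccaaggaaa
Ltf (chr9:111019042-111019270, plus strand, 229 bases): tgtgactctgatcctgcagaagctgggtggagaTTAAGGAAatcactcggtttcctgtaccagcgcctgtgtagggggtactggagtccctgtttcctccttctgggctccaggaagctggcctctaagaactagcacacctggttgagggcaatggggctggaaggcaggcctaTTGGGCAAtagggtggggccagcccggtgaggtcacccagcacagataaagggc
Camp (chr9:109849618-109849706, minus strand, 89 bases): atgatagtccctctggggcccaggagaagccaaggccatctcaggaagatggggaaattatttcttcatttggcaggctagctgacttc
Retnlg (chr16:48872358-48872607, plus strand, 250 bases): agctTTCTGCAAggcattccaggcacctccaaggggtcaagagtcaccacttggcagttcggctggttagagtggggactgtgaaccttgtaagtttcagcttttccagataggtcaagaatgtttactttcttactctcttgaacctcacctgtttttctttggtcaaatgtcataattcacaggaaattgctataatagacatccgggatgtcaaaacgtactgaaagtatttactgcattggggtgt
Chil3 (chr3:106167565-106167814, minus strand, 250 bases): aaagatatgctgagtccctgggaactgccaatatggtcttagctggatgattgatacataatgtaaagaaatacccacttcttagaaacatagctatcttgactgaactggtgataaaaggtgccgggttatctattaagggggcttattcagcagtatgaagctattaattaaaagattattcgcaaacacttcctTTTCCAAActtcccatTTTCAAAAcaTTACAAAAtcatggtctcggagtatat
Within the full 250-base windows, 8 of the 9 genes held the motif, all but Camp, against 36.9% of 27025 promoters. The windows held 14 matches, none of which overlapped the PU.1-type motif GAGGAA, itself present in 4 of the 9 windows and in 23.1% of all promoters. A match is a description of these letters and not a binding site.

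S100a8 (chr3:90668978-90670035, plus strand) and S100a9 (chr3:90692632-90695721, minus strand) are neighbours, with 22596 bases between them. Camp (chr9:109847379-109849617, minus strand), Ngp (chr9:110419747-110423012, plus strand) and Ltf (chr9:111019271-111042767, plus strand) lie on 1 chromosome, with 1169653 bases between Camp and Ltf. The other members are Retnlg (chr16:48872621-48874496), Lcn2 (chr2:32384633-32388252), Wfdc21 (chr11:83746940-83752642), Cd177 (chr7:24743983-24760311) and Chil3 (chr3:106147554-106167564), all protein-coding in GENCODE vM21 on GRCm38.

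The libraries held 68828158 to 88855120 UMIs. Neutrophils are small RNA sources: their median was 2118, 2469, 2288 and 2510 UMIs for PBS, then LNP-cGAMP, then the antibody and last the combination (an order kept below), against 16410 to 18596 for all kept cells. They made up 23.3%, 20.7%, 21.6% and 13.1% of cells but only 1.58% to 3.47% of the UMIs of kept cells. All 10 neutrophil markers were detected in the gated cells of each library, including Cxcr2 and Il1r2, which the rule did not use. Just inside the calgranulin threshold, at 50 to 100 per 10000, lay 20, 15, 20 and 6 cells, and just outside it, at 25 to 50, lay 12, 17, 10 and 1. Another 140, 175, 164 and 123 calgranulin-rich cells carried a Csf1r UMI and stayed outside the rule. Libraries shared 19 to 25 cell barcodes by pairs, none of them neutrophils in both.

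The libraries differed in the sex of the pooled mice. Neutrophils with a Y-linked UMI and no Xist UMI (male-called) numbered 174, 219, 64 and 5, and those with Xist only (female-called) numbered 0, 0, 96 and 69. All called neutrophils were thus male in the PBS and LNP-cGAMP pools, while 60% were female in the anti-PD-L1 pool and 93.2% in the combination pool. Another 3 anti-PD-L1 neutrophils carried both marks and were not called. Each treatment is 1 pool of its own mice, so treatment and source mouse cannot be told apart in any comparison. All comparisons but LNP-cGAMP with PBS also differ in the sex calls. Values within 1 call are given for S100a8, Retnlg, Ngp and Chil3.

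Transcripts of other cells were present at low levels. Summed macrophage markers reached 1429, 769, 471 and 1046 CPM (counts of a gene per 1000000 UMIs of the cells summed) in gated neutrophils, with Csf1r at 0 by the rule. From C1qa, C1qb, C1qc and Apoe, a background share of 13.8%, 8.29%, 5.30% and 10.2% of neutrophil UMIs was estimated against near-empty barcodes. Red cell globin transcripts summed to 2043 CPM with PBS, against 6.84, 131 and 1.64 in the other libraries, with all 4 globin genes detected in PBS. The part of these transcripts in the differences from PBS was not tested.

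By CPM level, 9 of the 10 members stood above T cells and phagocytes (Csf1r without Csf3r) in every library. Cells with both receptors, 19.5% to 32.5% of kept cells, and cells in no gate are left out of this comparison. S100a8 and S100a9 are part of the rule, so their height in neutrophils is a description. Retnlg, a secreted resistin-like protein of myeloid cells, reached 4782 to 14964 CPM in neutrophils, 2.85 to 18.3 in phagocytes with Ccr2 and Ly6c2, which mark monocytes, and 1.30 to 13.7 in T cells. Ltf in the combination rests on 3 UMIs and Camp in PBS on 2. Ngp was at most 0.30 CPM in either phagocyte group and at most 1.09 in T cells. Of all Retnlg UMIs in kept cells, 73.1% to 77.4% lay in the gated neutrophils. With anti-PD-L1 the share was 38.3% for Ngp and 6.52% for Camp, where 1 kept cell outside the rule held 736 of 797 Camp UMIs. For Ltf in the combination it was 12.5%.

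Chil3 was the member that did not stand above these phagocytes in every library. Chil3, the chitinase-like lectin Ym1 that macrophages, monocytes and neutrophils can all make, reached 1490, 1635, 2038 and 1158 CPM in the Ccr2 Ly6c2 phagocytes. In neutrophils it reached 1364, 2110, 714 and 475. Neutrophils were above these phagocytes only with LNP-cGAMP, and they held 0.98% to 6.89% of all Chil3 UMIs.

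**Figure D1:**
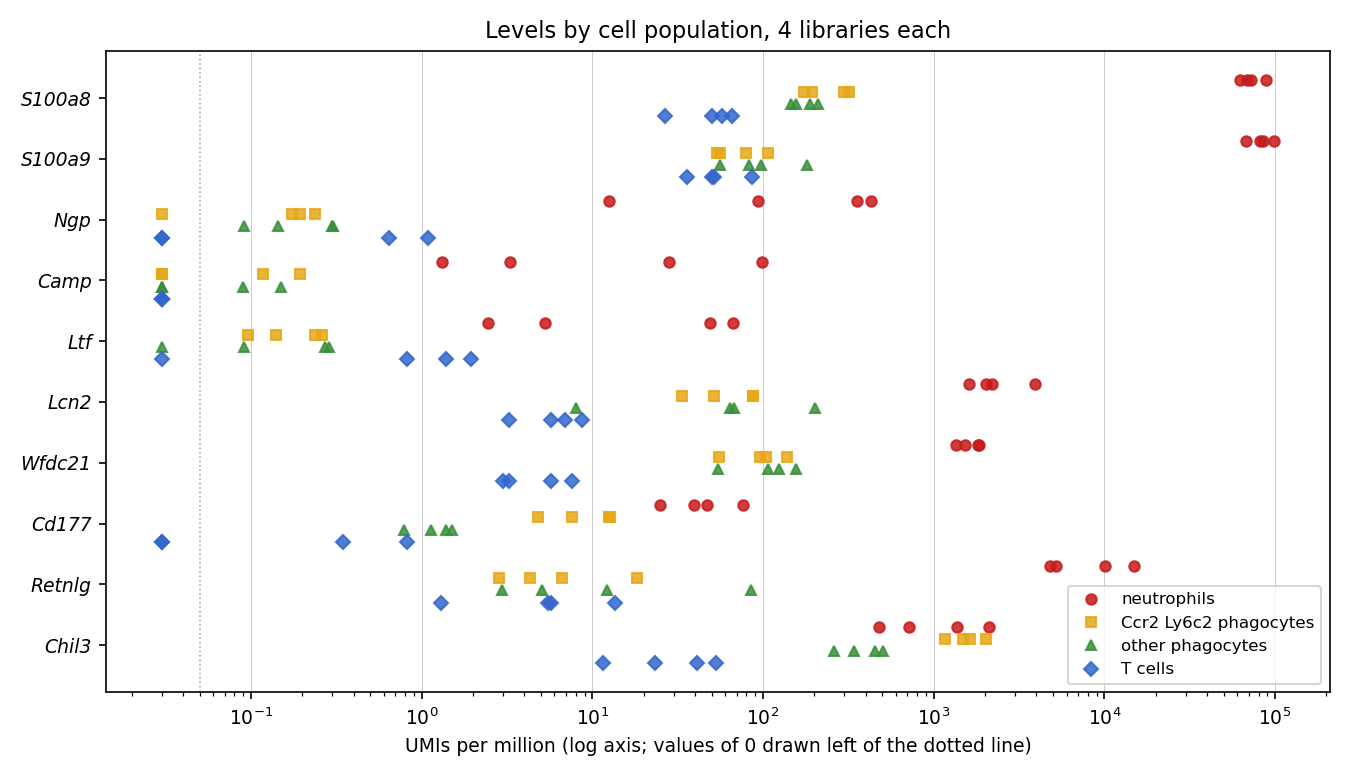
CPM (log axis) of the 10 genes in 4 cell populations, with 1 point per library and values of 0 drawn left of the dotted line. Among these populations, neutrophils (red circles) stand apart for 9 genes, and for Chil3 they overlap the Ccr2 Ly6c2 phagocytes (yellow squares), which range from 1158 to 2038. Other kept cells are not drawn.

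In the comparisons below a gene is called higher or lower where CPM, from UMIs summed over neutrophils and with 10 added, differed by at least 1.5-fold. All 10 members passed the filter on low values, which asked for 20 UMIs in all 4 libraries together and a level of 50 CPM somewhere. Ngp, Camp, Ltf and Cd177 passed it only through libraries in which they were high. Each is among the members called higher with LNP-cGAMP, so the counts and medians below are descriptions. Between LNP-cGAMP and PBS, 7 members were higher, where 6.82% of 2641 genes were, and 0 lower, where 10.8% were. The members' median log2 ratio was 1.30, against -0.15 over all genes. Between anti-PD-L1 and PBS, 4 were higher, where 3.22% of genes were, and 1 lower, where 8.33% were (median 0.34, against -0.13). Between the combination and PBS, 2 were higher, where 4.66% of genes were, and 1 lower, where 15.3% were (median 0.47, against -0.23). These 3 comparisons share the PBS library.

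Scaling changed the combination's count most. With trimmed-mean (TMM) scaling, the all-gene medians against PBS became 0.07, 0.12 and 0.09, and the members called higher became 8, 6 and 7 of 10, where 11.2%, 8.07% and 11.1% of 2576 genes were. Called lower were then 0, 1 and 1 members, where 4.31%, 3.57% and 3.88% of genes were. Against LNP-cGAMP, 0 members were higher in the combination, where 1.89% of genes were, and 6 lower, where 4.96% were (median -0.82, against -0.08). Against anti-PD-L1, 1 was higher, where 3.6% of genes were, and 3 lower, where 4.01% were (median -0.05, against -0.10).

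Single cells decided part of these counts. Without the 1 neutrophil of each library that held the most Ngp, Camp and Ltf UMIs, the members called higher than PBS numbered 5 with LNP-cGAMP, 1 with anti-PD-L1 and 2 with the combination, where 6.71%, 3.32% and 4.75% of 2651 genes were. In that setting 8 members passed the filter, Ngp and Cd177 again only through libraries in which they were high. The counts lower than PBS were 0, 1 and 1, where 10.7%, 8.26% and 15.4% of genes were. Without those cells, 0 members were higher in the combination than with LNP-cGAMP, where 1.89% of genes were, and 5 lower, where 4.87% were. Against anti-PD-L1, 2 were then higher, where 3.62% of genes were, and 1 lower, where 4.07% were.

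**Figure D2:**
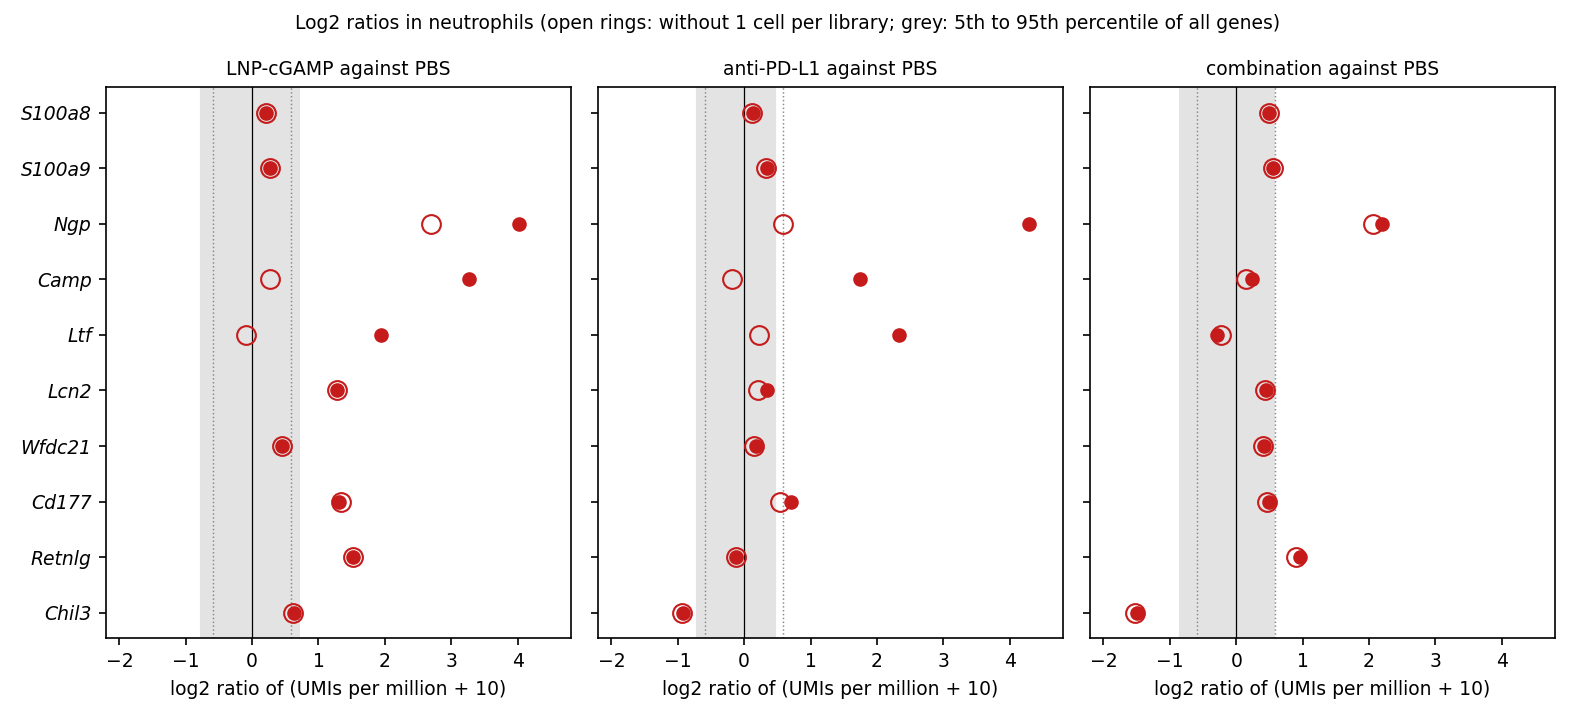
Log2 ratios of CPM plus 10 for the 10 genes in the 3 comparisons with PBS. Filled points are all neutrophils, open rings leave out 1 cell per library, grey bands span the 5th to 95th percentile of 2641 genes and dotted lines mark 1.5-fold. Ngp, Camp and Ltf move most between filled points and rings for LNP-cGAMP and anti-PD-L1. The rings of Ngp, Retnlg, Lcn2, Cd177 and Chil3 stay above 1.5-fold for LNP-cGAMP.

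Calgranulins were the most abundant members and were highest with the combination. S100a8, the smaller partner of calprotectin, reached 62456, 72111, 68605 and 88032 CPM. S100a9 reached 67567, 81709, 85491 and 98760. Together they made up 13.0%, 15.4%, 15.4% and 18.7% of all neutrophil UMIs, lowest with PBS and highest with the combination.

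No calgranulin passed 1.5-fold against PBS on this scale. S100a8 was 1.15-fold (1.15 to 1.16) with LNP-cGAMP, 1.10-fold (1.09 to 1.11) with anti-PD-L1 and 1.41-fold (1.40 to 1.42) with the combination. S100a9 was 1.21-fold (1.20 to 1.22), 1.27-fold (1.26 to 1.28) and 1.46-fold (1.45 to 1.47) in the same order. With TMM scaling both calgranulins passed 1.5-fold in the combination, at log2 ratios of 0.82 and 0.87. Within the anti-PD-L1 pool S100a8 was 52450.1 CPM in male-called and 75017 in female-called neutrophils, and in female-called combination cells it was 85053. When neutrophils were gated on Csf3r, absent Csf1r and 2 UMIs of other neutrophil genes instead of calgranulins, LNP-cGAMP gained 152 cells, and the log2 ratios against PBS turned to -0.37 for S100a8 and -0.31 for S100a9.

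The 2 calgranulins kept a near-fixed proportion in neutrophils. S100a9 UMIs per S100a8 UMI were 1.08 (1.07 to 1.09), 1.13 (1.13 to 1.14), 1.25 (1.24 to 1.26) and 1.12 (1.11 to 1.13). The anti-PD-L1 ratio lay above the other 3 by more than counting error. In Ccr2 Ly6c2 phagocytes the ratio was 0.180, 0.554, 0.176 and 0.457, and in near-empty barcodes it was 1.34 to 1.54, so these counts did not share 1 proportion across compartments.

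Ngp, Camp and Ltf are products of myelocytes and metamyelocytes: Ngp is a cystatin-related granule protein, Camp encodes the cathelicidin CRAMP and Ltf the iron-binding lactoferrin. Their summed levels were highest with LNP-cGAMP and anti-PD-L1. Ngp reached 12.5, 356, 429 and 93.5 CPM. Camp reached 1.31, 98.9, 28.0 and 3.28, and Ltf reached 5.25, 48.8, 66.8 and 2.46.

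Most of these UMIs came from 1 cell in the LNP-cGAMP and anti-PD-L1 libraries. A single LNP-cGAMP neutrophil of 11540 UMIs held 539 of 781 Ngp UMIs, 209 of 217 Camp UMIs and 99 of 107 Ltf UMIs. A single anti-PD-L1 neutrophil of 21391 UMIs held 764 of 797 Ngp, 52 of 52 Camp and 111 of 124 Ltf UMIs. Both lie far above the neutrophil median depth. Both carried Cxcr2 (4 and 8 UMIs) and no Elane, Mpo or Prtn3 UMI, with C1qb at 4 and 1 and Top2a at 0 and 1. Cxcr2 does not settle maturity, since an anti-PD-L1 cell outside the rule with 3 Mki67 and 11 Cebpe UMIs held 5. No male-called, female-called or uncalled anti-PD-L1 neutrophil held more than 9 Ngp UMIs. The 764 thus lay in a cell with both a Y-linked and an Xist UMI. Whether either cell is a doublet was not tested. The richest neutrophil held 7 of 29 UMIs of the 3 genes with PBS and 33 of 121 with the combination.

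**Figure D3:**
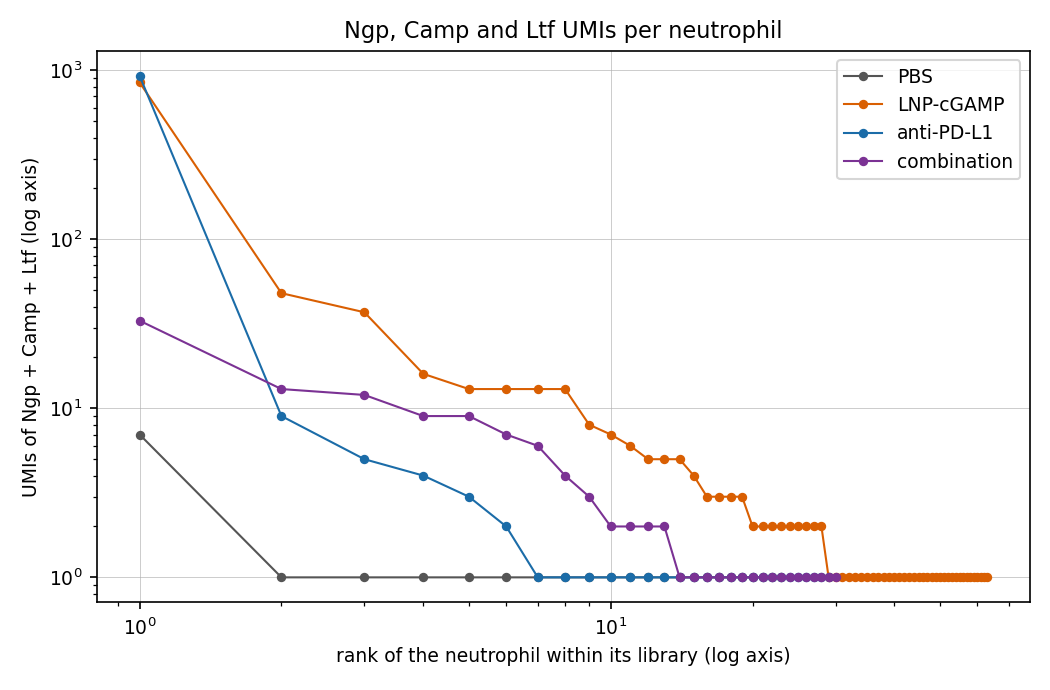
UMIs of Ngp, Camp and Ltf summed per neutrophil (log axis) against the rank of the cell in its library (log axis), for cells with at least 1. The first LNP-cGAMP and anti-PD-L1 cells hold 847 and 927 UMIs, and every other neutrophil holds fewer than 50.

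Without that cell, the Ngp level was 8.56, 111, 17.98 and 67.6 CPM. The LNP-cGAMP and combination libraries then stood above the other 2, and their intervals, 97.3 to 126 and 53.7 to 83.9, did not overlap those of PBS (4.56 to 14.6) and anti-PD-L1 (12.4 to 25.3). The Ngp fold against PBS was then 13.0 (7.43 to 24.7) with LNP-cGAMP, 2.10 (1.08 to 4.35) with anti-PD-L1 and 7.89 (4.37 to 15.5) with the combination. Camp was then 1.32, 3.66, 0 and 2.47 CPM and Ltf 4.61, 3.66, 7.08 and 2.47. Each of these rests on at most 13 UMIs, and no difference in Camp or Ltf was detectable at this depth.

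The share of neutrophils with an Ngp UMI was larger in the 2 libraries given LNP-cGAMP, less clearly so at equal depth. An Ngp UMI was seen in 14 of 660, 55 of 796, 19 of 736 and 26 of 465 neutrophils, or 2.12% (1.16 to 3.53), 6.91% (5.25 to 8.90), 2.58% (1.56 to 4.00) and 5.59% (3.68 to 8.09), by exact binomial intervals. After each cell was thinned to 1000 UMIs, leaving out 7, 3, 7 and 0 shallower cells, the shares were 1.38% (0.63 to 2.60), 3.28% (2.15 to 4.77), 1.23% (0.57 to 2.33) and 3.01% (1.66 to 5.00). These thinned intervals overlap between the libraries with and without LNP-cGAMP. Unthinned female-called cells held Ngp at 61.8 CPM (36.6 to 97.6) with anti-PD-L1, in 4 of 96, and 62.6 (32.3 to 109) with the combination, in 2 of 69. Cells with neither mark held an Ngp UMI in 2.44% (1.34 to 4.07) and 6.14% (3.97 to 9.00) of these libraries. Male-called cells held one in 3 of 174 with PBS and 19 of 219 with LNP-cGAMP, or 1.72% (0.36 to 4.96) and 8.68% (5.30 to 13.2). Unthinned T cells, with median depths of 5320, 12866, 7168 and 15514 UMIs, held an Ngp UMI in 0 of 65, 4 of 190, 1 of 120 and 0 of 148 cells. Their share was 2.11% (0.577 to 5.30) with LNP-cGAMP, whose interval overlaps that of the neutrophils of the same library. A count of 0 allowed a T cell share of up to 4.62% with PBS and 2.03% with the combination. The background estimate for Ngp was 3.19, 1.13, 0.877 and 0.252 CPM. That is 25.6% of the summed Ngp level in PBS and at most 0.32% in the other libraries. These summed levels include the richest cells, and without them the background part is larger.

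Lcn2, Wfdc21 and Cd177 are granule or secreted products also made by more mature neutrophils. Lcn2, lipocalin 2, binds bacterial siderophores and reached 1600, 3909, 2024 and 2183 CPM. It was 2.44-fold (2.33 to 2.56) higher with LNP-cGAMP than with PBS, 1.26-fold (1.20 to 1.33) with anti-PD-L1 and 1.36-fold (1.29 to 1.44) with the combination. The LNP-cGAMP difference passed 1.5-fold in all 18 alternatives tried. In the combination Lcn2 was 0.559-fold (0.535 to 0.583) its LNP-cGAMP level. With neutrophils gated without calgranulins, the Lcn2 log2 ratio of LNP-cGAMP to PBS went from 1.28 to 0.72. That of the combination to LNP-cGAMP went from -0.84 to -0.40, then under 1.5-fold.

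Cd177, a surface glycoprotein of neutrophils also stored in specific granules, was sparse. It reached 24.9 (17.6 to 34.2), 76.6 (65.4 to 89.0), 46.9 (37.5 to 57.8) and 39.3 (29.0 to 52.2) CPM. Only the LNP-cGAMP interval lay above the other 3, and the intervals of anti-PD-L1 and the combination overlapped. Cd177 was 3.07-fold (2.15 to 4.49) its PBS level with LNP-cGAMP. The anti-PD-L1 neutrophil rich in Ngp held 19 of 87 Cd177 UMIs, and without it the log2 ratio of anti-PD-L1 to PBS went from 0.70 to 0.54.

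Wfdc21, a small secreted protein with a whey acidic protein domain, varied least of the members, at 1347, 1850, 1532 and 1806 CPM. Its log2 ratios against PBS were 0.45, 0.18 and 0.42, none past 1.5-fold, although TMM scaling brought LNP-cGAMP to 0.68 and the combination to 0.74. With neutrophils gated without calgranulins, LNP-cGAMP was at -0.13. Wfdc21 was not confined to neutrophils: 16.4% to 52.9% of its UMIs in kept cells lay in them. The same held for Lcn2 (19.6% to 56.9%) and Cd177 (10.4% to 33.9%).

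**Figure D4:**
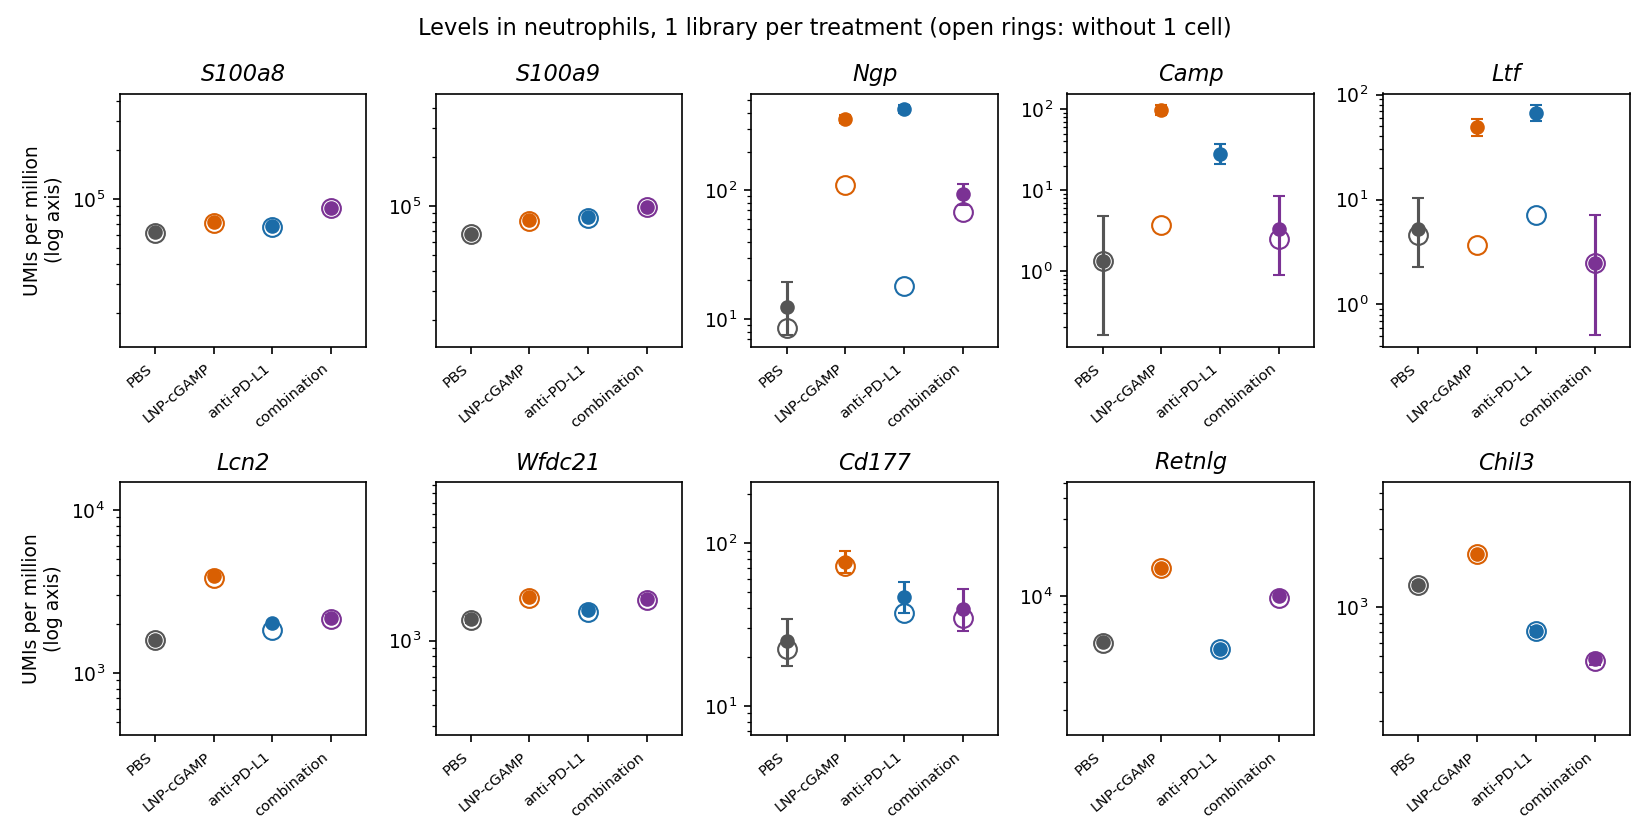
CPM (log axes) of each gene in the neutrophils of the 4 libraries, with exact Poisson 95% intervals. Open rings leave out the neutrophil richest in Ngp, Camp and Ltf, and no ring is drawn for Camp with anti-PD-L1, where the value is 0. Retnlg is at 14964 with LNP-cGAMP and 10126 with the combination against 5217 with PBS, and Chil3 is lowest with the combination at 475.

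Retnlg was higher in both libraries given LNP-cGAMP. It reached 5217, 14964, 4782 and 10126 CPM. The fold against PBS was 2.87 (2.80 to 2.94) with LNP-cGAMP, 0.917 (0.889 to 0.945) with anti-PD-L1 and 1.94 (1.89 to 2.00) with the combination. The first and last passed 1.5-fold in all 18 alternatives, while the anti-PD-L1 log2 ratio of -0.13 became 0.13 with TMM scaling. The combination was 2.12-fold (2.06 to 2.18) anti-PD-L1 alone and 0.677-fold (0.663 to 0.691) LNP-cGAMP alone. With neutrophils gated without calgranulins, the Retnlg log2 ratio of LNP-cGAMP to PBS went from 1.52 to 0.94. That of the combination to LNP-cGAMP went from -0.563 to -0.125.

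The Retnlg difference was seen in the distribution over cells. At 1000 UMIs per cell the median neutrophil held 1, 3, 2 and 3 Retnlg UMIs, and the 90th percentile was 13, 35.8, 12 and 26. Cells with at least 5 made up 24.8% (21.5 to 28.3), 41.7%, 28.7% and 42.8% of thinned neutrophils. The share with none was 42.4%, 29.9%, 36.9% and 21.1%.

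**Figure D5:**
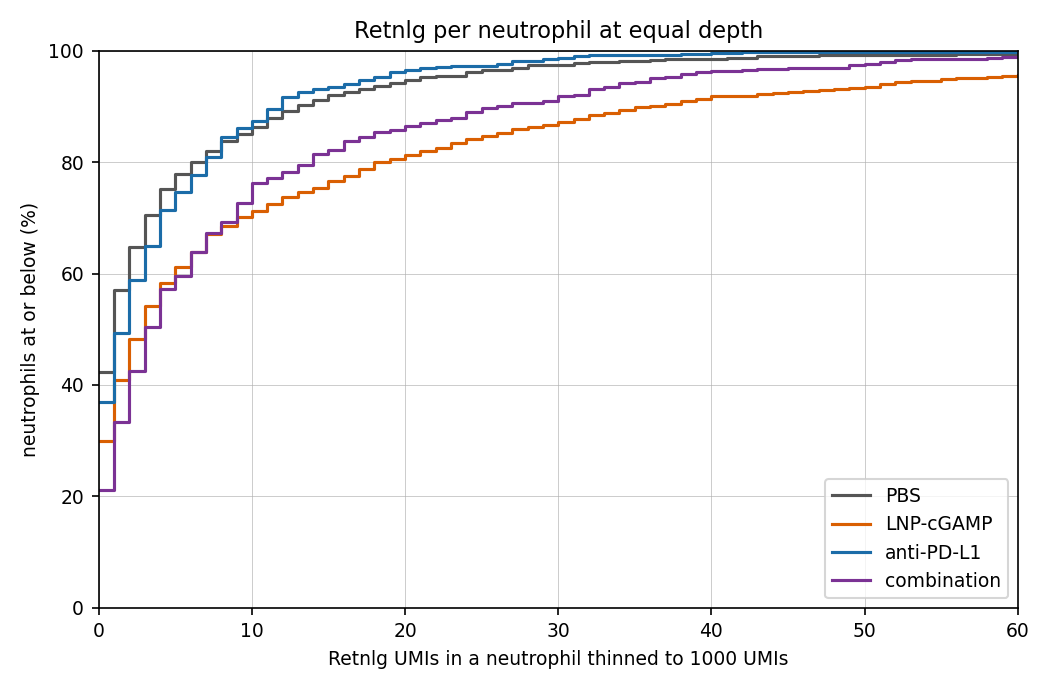
Share of neutrophils at or below each number of Retnlg UMIs after thinning every cell to 1000 UMIs, by library. The LNP-cGAMP and combination curves lie below the other 2, with 41.7% and 42.8% of cells at 5 UMIs or more against 24.8% and 28.7%.

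Lcn2 in LNP-cGAMP was concentrated in the Retnlg-rich cells. Among thinned neutrophils with at least 5 Retnlg UMIs, Lcn2 averaged 1.70 (1.51 to 1.92), 5.78 (5.53 to 6.05), 2.55 (2.34 to 2.78) and 2.99 (2.76 to 3.25) UMIs per 1000. Among those without Retnlg it averaged 1.04, 1.40, 1.29 and 1.47. Across thinned LNP-cGAMP neutrophils the Pearson correlation of Retnlg with Lcn2, on the log of UMIs plus 1, was 0.59, against 0.22, 0.28 and 0.32 in the PBS, anti-PD-L1 and combination libraries. These are descriptions over cells of 1 library, which share depth and library.

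Within cells called for 1 sex, the LNP-cGAMP difference remained and the anti-PD-L1 library split. Retnlg in male-called neutrophils was 4450.5 (4256 to 4652) CPM with PBS and 16636 (16337 to 16938) with LNP-cGAMP. In the anti-PD-L1 library it was 2636 (2386 to 2904) in the 64 male-called cells and 6843 (6546 to 7150) in the 96 female-called cells of the same pool. Female-called cells of the combination held 9393 (8964 to 9837), so the log2 ratio of combination to anti-PD-L1 went from 1.08 over all cells to 0.46 in female-called cells, below 1.5-fold.

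Chil3 was higher than PBS with LNP-cGAMP and lower with the other 2 treatments. It was 1.55-fold (1.47 to 1.63) its PBS level with LNP-cGAMP, 0.523-fold (0.488 to 0.561) with anti-PD-L1 and 0.348-fold (0.317 to 0.382) with the combination. The combination was 0.225-fold (0.206 to 0.246) LNP-cGAMP alone. With neutrophils gated without calgranulins, the log2 ratio to PBS went from 0.63 to 0.35 with LNP-cGAMP and from -0.92 to -0.34 with anti-PD-L1, both then under 1.5-fold. A Chil3 UMI was seen in 38.9%, 46.9%, 20.9% and 20% of thinned neutrophils, against 0%, 5.26%, 3.33% and 4.05% of thinned T cells. The background estimate was 11.8%, 3.78%, 10.4% and 12.8% of the Chil3 level in neutrophils. Near-empty barcodes held Chil3 at 1164, 962, 1403 and 601 CPM. That is above the neutrophil levels of 714 with anti-PD-L1 and 475 with the combination.

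Chil3 was also read within cells called for 1 sex, where single cells carried much of the count. In the anti-PD-L1 library, Chil3 was 1856 (1648 to 2083) CPM in male-called and 738 (643 to 843) in female-called neutrophils. Male-called PBS and LNP-cGAMP neutrophils held 1217 (1117 to 1325) and 1958 (1857 to 2064). Female-called combination cells held 761 (643 to 895). One male-called anti-PD-L1 cell held 139 of 288 Chil3 UMIs, and 1 female-called combination cell held 76 of 146.

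Leaving out the cell richest in Chil3 of each call and library lowered these levels. Male-called anti-PD-L1 cells were then at 1022 (864 to 1200) and female-called ones at 588 (502 to 685). Male-called PBS cells were then at 1097 (1001 to 1199), and female-called combination cells at 398 (310 to 503). A Chil3 UMI was seen in 42.2% (29.9 to 55.2) of male-called and 33.3% (24.0 to 43.7) of female-called anti-PD-L1 neutrophils, intervals that overlap. Neutrophils with neither mark held 580 in the anti-PD-L1 library and 425 in the combination. Between male-called cells, the log2 ratio of anti-PD-L1 to PBS was 0.60 with those cells and -0.10 without them, against -0.92 over all cells. Between female-called cells, that of the combination to anti-PD-L1 was 0.04 with them and -0.55 without. The sex calls also differ between the combination and PBS pools, and treatment and source mouse cannot be told apart in the lower Chil3 of the combination.

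Chil3 also varied apart from the other members among cells. Its correlations with S100a8, S100a9, Retnlg and Wfdc21 across thinned neutrophils averaged -0.15, -0.20, -0.04 and -0.06 over the 4 libraries. Of 1799 genes compared, those most like it were Klhl6 (mean r 0.28), Tsc22d3 (0.22), a glucocorticoid-induced regulator, and Ftl1 (0.19), the ferritin light chain, all weak. S100a8 and S100a9 were each other's nearest gene (mean r 0.87, from 0.86 to 0.88 by library). Retnlg was nearest to Wfdc21 (0.44), S100a8 (0.41) and S100a9 (0.40), and Lcn2 was nearest to Retnlg (0.35). All of these are over cells thinned to 1000 UMIs, which share a library.

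Genes of the granule programme outside the 10 members were counted next. Of 6 primary granule genes, 1 passed the filter: Prtn3, proteinase 3, at 78.7, 27.8, 49.6 and 34.4 CPM, lower than PBS with LNP-cGAMP and the combination. Mpo and Elane, encoding myeloperoxidase and neutrophil elastase, had 1 and 6 UMIs in all, and Ctsg and Ms4a3 had 0, which allows at most 2.46 CPM in any library. Of 16 other granule and antimicrobial genes, 13 passed. Higher and lower than PBS were 4 and 1 with LNP-cGAMP, 4 and 1 with anti-PD-L1, and 3 and 2 with the combination (with TMM scaling 6 and 0, 8 and 1, 6 and 1). Of all genes, 6.82% and 10.8%, 3.22% and 8.33%, and 4.66% and 15.3% were higher and lower in the same order, so the 2 of 13 lower in the combination is near the share of all genes.

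The largest ratio in that list was that of a collagenase. Mmp8, the neutrophil collagenase of specific granules, reached 298, 2249, 423 and 1186 CPM, higher in both libraries given LNP-cGAMP, in the same order as Retnlg for those 2. Anxa1, annexin A1, reached 407, 895, 595 and 443. Stfa2, a cystatin-like protease inhibitor with close paralogues, was at 429, 586, 919 and 582, and its counts are uncertain where reads fit a paralogue. Mmp9, gelatinase B, was lower than PBS in all 3, at 2163, 1255, 1162 and 1039.

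Of 8 regulators of granule genes, 4 passed the filter and 0 of these were called in any comparison: Cebpb (4393, 3946, 4083 and 4319 CPM), Spi1, Stat3 and Klf2. On this scale, 1.89% to 6.82% of all genes were higher and 4.01% to 15.3% lower across the comparisons. With TMM scaling 2, 1 and 1 of the regulators passed 1.5-fold above PBS, where 11.2%, 8.07% and 11.1% of all genes did. Cebpe, the regulator of secondary granule genes, stayed below the filter at 43.9, 19.1, 24.8 and 10.7, and was 0.242-fold (0.123 to 0.443) its PBS level in the combination. Cebpa, also below the filter, was 1.92-fold (1.21 to 3.14) its PBS level with LNP-cGAMP, and Cebpd was not matched. Of 7 receptors for member proteins, 3 passed, and Fpr1, a formyl peptide receptor, was called higher in the combination, at 215, 324, 233 and 404. In that comparison with PBS, 4.66% of all genes were higher.

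Only 6 other S100 genes were examined. Of these, 5 passed, with 0 higher and 2 lower than PBS in each comparison (1 lower in the combination with TMM scaling). Of all genes, 6.82%, 3.22% and 4.66% were higher and 10.8%, 8.33% and 15.3% lower, with 3.88% lower in the combination after TMM scaling. The 0 of 5 higher is thus near the share of all genes. S100a4 reached 173, 35.1, 79.7 and 68.9 CPM and S100a10 reached 331, 151, 141 and 202, both highest with PBS. S100a6 was level, at 5706, 5417, 5789 and 5123. Among 10 maturation, homing and ageing genes, 7 passed. Higher and lower than PBS were 1 and 1 with LNP-cGAMP, 0 and 0 with anti-PD-L1, and 1 and 1 with the combination. With TMM scaling these were 1 and 1, 1 and 0, and 2 and 0. The shares of all genes are those given above, and counts of 0 or 1 of 7 do not set this list apart. Ly6g, the surface marker of mouse neutrophils, was the gene called higher, at 95.8, 162, 127 and 207. Itgam, encoding CD11b, was the gene called lower in the same 2 comparisons, at 586, 316, 440 and 361. Cxcr4, the chemokine receptor that holds neutrophils in the marrow, was at 179, 212, 145 and 134, and no comparison with PBS called it.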

How the data were processed

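The authors deposited raw UMI counts per gene and barcode. The file headers record Cell Ranger 3.0.2, and the submitters' processing notes name mm10. The labels name both the v2 and the V3 reagent kit, and the version was not settled. Kept barcodes reached the lowest point of the smoothed log10 UMI density between 300 and 5000 UMIs (861 to 989), at least 200 genes and at most 10% mitochondrial UMIs. No doublet caller was run, so doublets remain. UMIs were summed per library over gated neutrophils and compared as log2 ratios of counts per 1000000 UMIs (CPM) with a pseudocount of 10. Near-empty barcodes held 10 to 100 UMIs. Sums have exact Poisson, ratios conditional binomial and shares Clopper-Pearson intervals. A count of 0 allows 3 counts. Named genes were all members and up to 4 per list with the largest ratios to PBS, plus list genes below the filter that a sentence turned on. Cxcr4 was named outside this rule. Partners were the 3 genes of highest mean correlation seen in at least 5% of neutrophils. The members and lists were chosen with earlier results of these data known. Calculations used Python 3.11.15 (numpy 2.4.6, scipy 1.17.1, pandas 2.3.3) and edgeR 4.0.16 in R 4.3.3 for TMM factors only, and were tested on simulated data.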

Additional observations from a re-analysis of the deposited data

Results flagged for a closer look

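For 4 genes the log2 ratio of an agent passed 1.5-fold in opposite directions alone and beside the other agent. For LNP-cGAMP, Ngp was 4.03 alone and -2.09 beside the antibody, Camp 3.27 and -1.52, and Ltf 1.95 and -2.62. For anti-PD-L1, Ngp was 4.29 alone and -1.82 beside LNP-cGAMP, Camp 1.75 and -3.04, Ltf 2.33 and -2.24, and Cd177 0.70 and -0.81. These differences were not tested, since each treatment has 1 library. Without the richest neutrophil of each library, Ngp was 2.70 alone and 1.47 beside the antibody for LNP-cGAMP, and 0.59 and -0.64 for anti-PD-L1. Camp was then 0.27 and 0.32 for LNP-cGAMP, and -0.18 and -0.13 for anti-PD-L1. Ltf was -0.10 and -0.45 for LNP-cGAMP, and 0.23 and -0.13 for anti-PD-L1. None of these Camp and Ltf values passed 1.5-fold. Cd177 was 0.54 and -0.89 for anti-PD-L1, the first under 1.5-fold.

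Cells outside the neutrophil rule carried the same granule transcripts. A kept anti-PD-L1 cell of 20596 UMIs with no Csf3r UMI held 2144 UMIs of Ngp, Camp and Ltf (1258, 736 and 150), with 11 of Cebpe, 5 of Prtn3 and 3 of Ms4a3, genes of granulocyte precursors, and 3 of the proliferation gene Mki67. A kept LNP-cGAMP cell of 7391 UMIs, also without Csf3r, held 190 (127, 22 and 41). The richest such cells held 2 UMIs with PBS and 7 with the combination.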

How the results depend on the processing

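No paired analysis was possible because each treatment has 1 library. Against PBS, Retnlg (LNP-cGAMP and the combination) and Lcn2 (LNP-cGAMP) stayed past 1.5-fold in all 18 alternatives, and Chil3 stayed lower in the combination in all 18. Of 182 counts of members recomputed, 151 stayed within 1.5 times their first value and 31 did not. Shares over all genes were recomputed only with TMM scaling and without the richest cell, as given above. Leaving out the cell richest in Ngp, Camp and Ltf or in Chil3 and restricting to female-called cells were chosen after the data were seen.

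Members called higher with LNP-cGAMP than PBS numbered 4 with at least 2 Csf3r UMIs and 4 after thinning. For anti-PD-L1 against PBS the higher count was 0 at no more than 5000 UMIs per cell, and 1 with equally weighted cells, after thinning, in male-called cells and without the richest cell. The lower count was 0 with the gate free of calgranulins and 2 in male-called cells. For the combination against PBS the higher count was 4 in male-called cells, 5 when scaled without the members, 7 with TMM or median-of-ratios scaling and 4 with a pseudocount of 1. The lower count was 3 in male-called cells and 2 with a pseudocount of 1. Only 5 combination cells were male-called.

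Against LNP-cGAMP, the combination had 2 higher members with the gate free of calgranulins and 1 in male-called cells. The lower count was 3 with at least 2 Csf3r UMIs, at no more than 5000 UMIs, with equal weights and after thinning. Against anti-PD-L1 the higher count was 2 at no more than 5000 UMIs and without the richest cell, 4 in male-called and 0 in female-called cells. The lower count was 0 at no more than 5000 UMIs, with equal weights and after thinning, and 1 without the richest cell and in female-called cells.

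Among ratios past 1.5-fold, signs turned as follows. The Ltf log2 ratio of LNP-cGAMP to PBS was -0.21 with at least 2 Csf3r UMIs. The Ngp ratio of combination to LNP-cGAMP was 0.18 at no more than 5000 UMIs. Its ratio to anti-PD-L1 was 1.63 at no more than 5000 UMIs, 0.0265 with equal weights, 0.0255 after thinning, 1.47 without the richest cell and 0.0156 in female-called cells. In male-called cells, anti-PD-L1 to PBS was -0.75 for Ngp and 0.60 for Chil3, and the combination to PBS was -0.75 for Ngp. Without the cell richest in Chil3, the Chil3 value was -0.10. Among ratios under 1.5-fold, 20 values of 11 ratios also had the other sign. The settings at no more than 5000 UMIs, without the richest cell and within 1 sex call remove the 2 cells that hold most Ngp UMIs. The setting with at least 2 Csf3r UMIs removes the LNP-cGAMP one, which held 1 Csf3r UMI and 99 of 107 Ltf UMIs. For the other settings the cause was not tested.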
